A study of Mus musculus with 8 samples.

Results

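The liver X receptors (LXRs), their targets and the enzyme that esterifies cholesterol were described through 10 genes, which were chosen by name for their place in sterol sensing, efflux and esterification: Nr1h2, Nr1h3, Abca1, Abcg1, Apoe, Arl4c, Mylip, Srebf1, Lpcat3 and Soat1. They are 10 of the 56805 gene symbols in the deposited table, and 10 of 10 had enough counts to be tested, as had 16006 symbols in all. Bulk RNA-seq was performed on OT-I CD8+ T cells, whose T cell receptor recognizes an ovalbumin peptide, from C57BL/6J OT-I:Rosa26-Cas9 mice of 6 to 10 weeks, bred from Rag2/OT-I and Rosa26-Cas9 knock-in parents. Both groups therefore carried the transgenic receptor and constitutive Cas9. After activation in culture, the cells were transduced with a lentivirus that encodes a guide against Elovl1 (sgElovl1) or a non-targeting guide (sgNT). ELOVL1 elongates very-long-chain fatty acids. Transduced cells were sorted on the CD90.1 reporter of the vector 3 days after transduction, which was day 7 from activation. The sort selects cells with the vector and not cells with the edit. There were 8 labelled samples, 2 mice per group and experiment, from 2 experiments. The table holds 4 columns, each the summed counts of 2 mice of 1 group in 1 experiment.

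The 4 columns held 49068952 to 63623476 counts. Levels are given as CPM, which are counts divided by the TMM-adjusted size of the library, and differences as log2 fold changes with their standard error (SE) from a model with group and experiment as terms. A gene was called at an adjusted p below 0.05. Elovl1 measured 55.8 CPM in sgElovl1 cells against 93.5 in sgNT cells in experiment 2, and 61.3 against 110 in experiment 1 (log2 fold change -0.80 ± 0.07, SE; adjusted p = 3.8e-28), so that 57.5% of the transcript level was left. The exact two-sided permutation test of 2 against 2 columns gave p = 0.333 for Elovl1, the smallest this design allows. The experiments differed far more than the groups did. Of 16006 genes, 192 (1.20%) were called between sgElovl1 and sgNT, whereas 8896 (55.6%) were called between experiment 2 and experiment 1. What differed between the experiments in mice, culture, sorting or sequencing is not given, and a batch and a biological difference between them cannot be told apart.

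LXRα (Nr1h3) and LXRβ (Nr1h2) are nuclear receptors that bind oxysterols and desmosterol, pair with a retinoid X receptor (RXR) and activate genes through a direct repeat of hexamers separated by a short spacer. When sterols accumulate, they raise the exporters ABCA1 and ABCG1, the lipid carrier APOE, the ubiquitin ligase MYLIP, which sends lipoprotein receptors to degradation, the lipogenic factor SREBP-1c (Srebf1) and the phospholipid-remodelling enzyme LPCAT3. SOAT1 works beside this pathway: it stores cholesterol as esters. In mouse T cells, LXRβ is known as the main form and as a brake on proliferation, and SOAT1 is known to limit the cholesterol of the plasma membrane of CD8+ T cells.

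The promoters of Abca1 and Srebf1 are shown because the direct repeat through which LXR acts has been described in both, and because both genes are among those that differed between the experiments. The bases run from 250 before the start site to the base before it, from RefSeq on GRCm38.p6, on the strand of the gene. Capitals mark the best match to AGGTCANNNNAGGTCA, which lies on the opposite strand.
Abca1, chr4:53159896-53160145, minus strand: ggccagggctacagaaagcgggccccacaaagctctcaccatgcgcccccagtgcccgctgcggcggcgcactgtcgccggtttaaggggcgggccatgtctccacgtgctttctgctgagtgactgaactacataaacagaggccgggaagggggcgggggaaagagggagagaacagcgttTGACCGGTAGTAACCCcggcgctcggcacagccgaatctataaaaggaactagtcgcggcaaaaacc
Srebf1, most downstream start site, chr11:60210472-60210721, minus strand: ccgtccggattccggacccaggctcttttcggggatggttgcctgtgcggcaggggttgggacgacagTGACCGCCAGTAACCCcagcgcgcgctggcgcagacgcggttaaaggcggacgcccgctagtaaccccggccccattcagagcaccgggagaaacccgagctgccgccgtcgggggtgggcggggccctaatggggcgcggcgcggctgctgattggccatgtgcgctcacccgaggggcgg

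Windows from 250 bases before to 50 bases after a start site were searched on both strands. Of the 10 genes, 9 matched a window, all but Abcg1, with 14 windows in all. None of these 14 windows held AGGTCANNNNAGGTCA exactly, which was present in 5 of 32851 windows (0.0152%). With up to 3 mismatches it was found in 3 of the 14 windows, those of Abca1, Srebf1 and Arl4c, and in 21.9% of all windows. The hexamer AGGTCA, which is part of that repeat, was in 0 of the 14 windows and in 16.3% of all windows. The matches of Abca1 and Srebf1 shared all letters but a pair, GGGTTACTNNCGGTCA. That pattern was read from these genes and was then searched in all windows, where it stood in 3 (0.00913%): Abca1, Srebf1 and Fasn, the gene of fatty acid synthase, which is itself known as an LXR target. The 3 matches are given in the orientation of the pattern, on the plus strand of GRCm38.p6, and lie 67 to 52 bases (Abca1), 182 to 167 bases (Srebf1) and 225 to 210 bases (Fasn) before the start site.
Abca1, chr4:53159947-53159962: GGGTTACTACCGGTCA
Srebf1, chr11:60210638-60210653: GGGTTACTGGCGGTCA
Fasn, chr11:120824757-120824772: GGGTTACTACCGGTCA

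The first comparison asked whether these genes differed between sgElovl1 and sgNT cells. None of the 10 was called by edgeR, against 1.20% of all genes. An unadjusted p below 0.05 was found for 1 of 10, Mylip, and for 1698 of the 16006 genes tested. Limma-voom also called 0 of the 10. DESeq2, by its Wald and its likelihood-ratio test, gave an adjusted p for 6 of the 10, which leaves out Abca1, Mylip, Nr1h3 and Apoe, and called 0 of these 6. The groups overlapped over the 4 columns for every one of the 10 genes, and only 12.6% of all genes tested did not overlap. The median log2 fold change of the 10 was 0.03, and that of all genes tested was -0.01. For 8 genes, all but Nr1h3 and Abca1, the mean was at least 10 CPM and the 95% intervals of the fold change lay between -0.18 and 0.41 on the log2 scale, so that larger differences fell outside them. The intervals of Nr1h3 (-0.40 to 0.47) and Abca1 (-0.73 to 1.10) were wider, and a moderate difference of these genes was not detectable at this depth.

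Mylip stood highest among them. It measured 24.6 CPM in sgElovl1 cells and 22.5 in sgNT cells in experiment 2, and 13.5 in sgElovl1 cells and 10.9 in sgNT cells in experiment 1. The sgElovl1 column was thus the higher within each experiment, and the fitted difference was 0.21 ± 0.10 (log2, SE; 95% interval 0.02 to 0.41; unadjusted p = 0.033; adjusted p = 0.41). Nr1h2 was also higher in the sgElovl1 column of both experiments, by 0.08 and 0.12 in log2 CPM in experiments 2 and 1, with a fitted value of 0.10 ± 0.06 (adjusted p = 0.63). Arl4c was lower in both, with a fitted value of -0.05 ± 0.07 (adjusted p = 0.87). The other 7 genes had fitted values between -0.01 and 0.18 and adjusted p-values of 0.76 to 0.99. In 5 of the 10 genes, namely Abcg1, Apoe, Srebf1, Lpcat3 and Soat1, the sgElovl1 column was the higher in one experiment and the lower in the other.

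**Figure D1:**
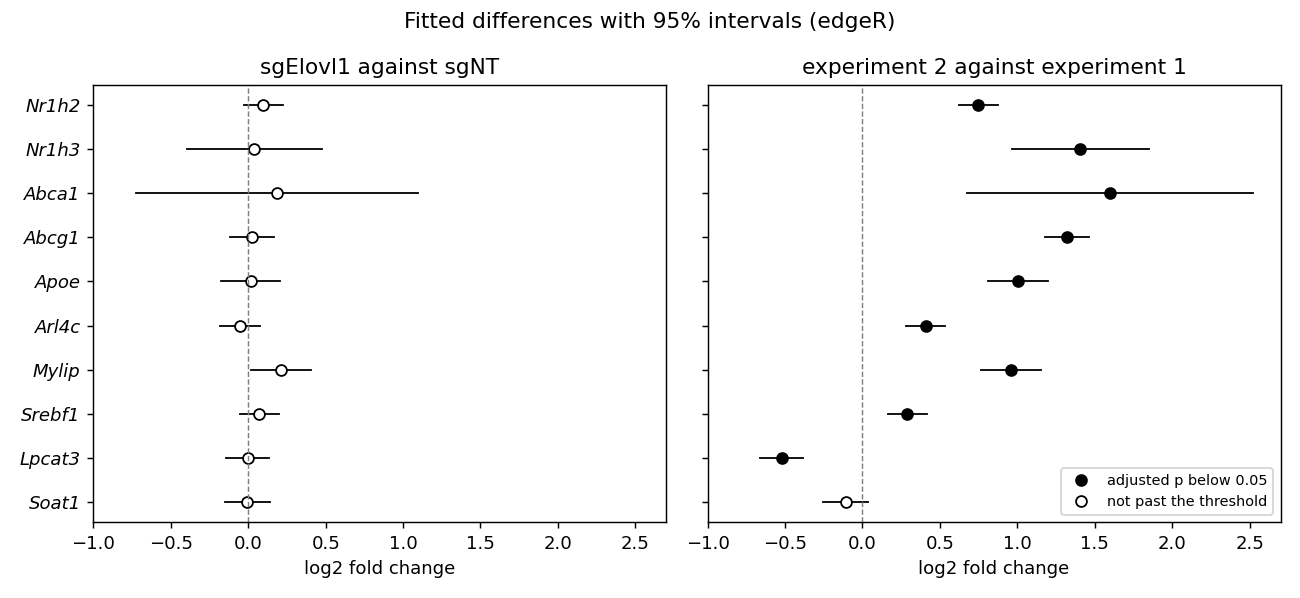
Log2 fold change (x axis) of the 10 genes (y axis) for sgElovl1 against sgNT (left) and experiment 2 against experiment 1 (right), with 95% intervals from edgeR, where filled points have an adjusted p below 0.05. On the left 0 of 10 points are filled, and on the right 9 of 10 are, 8 of them above 0.

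The second comparison asked how the same genes differed between the experiments, in both groups alike. Of the 10 genes, 8 were higher in experiment 2, where 26.4% of all genes were, and 1 was lower, where 29.2% of all genes were. The 8 were Abca1, Nr1h3, Abcg1, Apoe, Mylip, Nr1h2, Arl4c and Srebf1, and each was higher in experiment 2 in the sgElovl1 columns and in the sgNT columns. Lpcat3 was the one that was lower, and Soat1 was not called. The median log2 fold change of the 10 was 0.85, and that of all genes tested was -0.0025. The columns of experiments 2 and 1 did not overlap for 9 of the 10 genes, all but Soat1, as for 75.8% of all genes tested. The exact permutation test of 2 against 2 columns gave 0.333 for each of these 9 genes, the smallest p it allows, so that their calls rest on the spread shared by all genes in the edgeR fit. In bulk RNA, more cells that express a gene and more RNA per cell cannot be told apart.

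**Figure D2:**
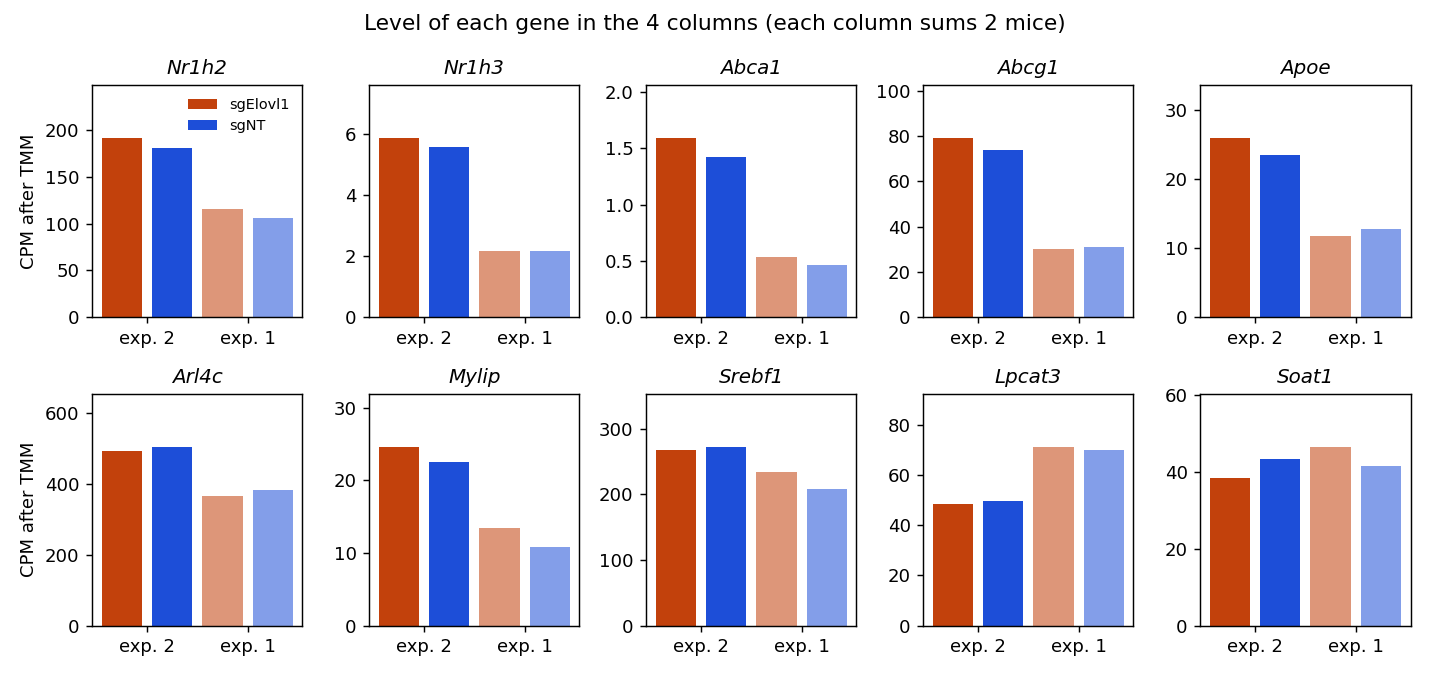
CPM after TMM scaling (y axis, a scale for each gene) of the 10 genes in the 4 columns, with experiment 2 on the left and experiment 1 on the right and sgElovl1 beside sgNT in each. A bar is 1 column, the sum of 2 mice, and has no error. For 8 genes both bars of experiment 2 stand above both bars of experiment 1.

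Of the receptors, LXRβ was by far the more abundant transcript. Nr1h2 measured 191 CPM in sgElovl1 cells and 181 in sgNT cells of experiment 2, against 115 and 106 in experiment 1 (log2 fold change 0.75 ± 0.06, SE; adjusted p = 3.8e-30). Nr1h3 measured 5.85 CPM in sgElovl1 cells and 5.57 in sgNT cells of experiment 2, and 2.15 in both groups of experiment 1. Its log2 fold change was 1.41 ± 0.22 (adjusted p = 1.6e-09), on counts of only 113 to 324 per column. Both receptors were thus higher in experiment 2, in either group. Per kb of exons, the level of Nr1h2 was 24.5 times that of Nr1h3 in the sgElovl1 column and 24.4 times in the sgNT column of experiment 2, against 40.3 and 37.2 times in experiment 1. Per kb of the whole span of the genes, introns included, it was 142 and 141 times in experiment 2, against 233 and 215 times in experiment 1. In the GENCODE annotation, Nr1h3 overlaps Gm13783 on the same strand, and the assignment of reads that both genes cover is uncertain.

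The exporters were, with Nr1h3, the genes of the 10 with the largest differences between the experiments. Abca1, which loads cholesterol and phospholipid onto lipid-poor apolipoprotein, measured 1.59 CPM in sgElovl1 cells and 1.42 in sgNT cells of experiment 2, against 0.532 and 0.458 in experiment 1. These levels rest on 88 and 71 counts in experiment 2 and on 28 and 29 counts in experiment 1, and the exact 95% Poisson intervals, which cover counting error only, were 1.27 to 1.96 and 1.11 to 1.79 CPM against 0.354 to 0.769 and 0.307 to 0.658 CPM. Both columns of experiment 2 lay above both of experiment 1 beyond counting error. The fold change was 3.03, or 1.60 ± 0.47 on the log2 scale (adjusted p = 1.6e-03). It lost its call without the sgElovl1 column of experiment 2 (log2 fold change 1.52, adjusted p = 0.062). Abcg1, which passes cholesterol to formed high-density lipoprotein particles, had far more counts. It measured 79.0 CPM in sgElovl1 cells and 73.8 in sgNT cells of experiment 2, against 30.0 and 31.1 in experiment 1 (log2 fold change 1.32 ± 0.07, adjusted p = 7.3e-71). The log2 fold change of Abca1 exceeded that of 95.8% of all genes tested, and that of Abcg1 exceeded 93.6%.

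Apoe and Arl4c serve lipid carriage and membrane traffic. Apoe, whose protein accepts exported lipid, measured 25.9 CPM in sgElovl1 cells and 23.4 in sgNT cells of experiment 2, against 11.7 and 12.8 in experiment 1 (log2 fold change 1.01 ± 0.10, adjusted p = 1.7e-23). Arl4c encodes a small GTPase of the ARF family that is induced by LXR in human and mouse cells. It was the most abundant of the 10, with 491 CPM in sgElovl1 cells and 503 in sgNT cells of experiment 2, against 366 and 384 in experiment 1. Its difference was smaller, 0.41 ± 0.07 on the log2 scale (adjusted p = 2.0e-09).

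Mylip, the ligase that limits lipoprotein uptake, was higher in experiment 2 by 0.96 ± 0.10 on the log2 scale (adjusted p = 6.7e-21), with the levels given above. The difference between the experiments was 0.87 within the sgElovl1 columns and 1.05 within the sgNT columns. Both exceeded the fitted sgElovl1 difference of the same gene. Srebf1, the lipogenic factor whose most downstream promoter carries one of the matches shown above, measured 267 CPM in sgElovl1 cells and 272 in sgNT cells of experiment 2, against 234 and 208 in experiment 1. Its difference of 0.29 ± 0.06 (log2, adjusted p = 1.7e-05) was the smallest among the 8 genes that were higher. The counts are sums over the whole gene and do not separate its start sites, so that SREBP-1a and SREBP-1c were not told apart.

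Neither of the 2 lipid acyltransferases was called higher in experiment 2. Lpcat3, which puts polyunsaturated acyl chains into phospholipids, fell to 48.5 CPM in sgElovl1 cells and 49.6 in sgNT cells of experiment 2, against 71.0 and 69.8 in experiment 1 (log2 fold change -0.52 ± 0.07, adjusted p = 7.1e-13). It was thus called opposite to the other LXR targets among the 10. Soat1 measured 38.5 CPM in sgElovl1 cells and 43.4 in sgNT cells of experiment 2, against 46.5 and 41.7 in experiment 1. Its columns overlapped between the experiments and between the groups, and its difference between experiments was -0.11 ± 0.07 (95% interval -0.25 to 0.04; adjusted p = 0.22).

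Levels of different genes were compared per kb of exons, with exon lengths from GENCODE M21 (GRCm38), which is not the annotation the authors counted on. Arl4c stood first, with 66.7 to 91.6 CPM per kb over the 4 columns, above the ranges of Nr1h2 (31.7 to 57.0) and Srebf1 (36.9 to 48.2), which overlapped each other. Lpcat3 followed with 14.8 to 21.7 CPM per kb, overlapping neither its upper nor its lower neighbour. Apoe (5.48 to 12.1), Abcg1 (4.10 to 10.8), Mylip (3.37 to 7.60) and Soat1 (3.93 to 4.75) each overlapped the next in this order, while Apoe lay above Soat1 with no overlap. Nr1h3 (0.854 to 2.33) and Abca1 (0.0442 to 0.153) were lowest and apart from the rest. Per kb, Abcg1 was 70.6 to 96.5 times as high as Abca1 in the 4 columns by exons, and 106 to 145 times by the whole span. Because the counting took in introns, the levels were also divided by the whole span of the gene: Nr1h2 then came before Arl4c (34.3 CPM per kb for Nr1h2), Apoe before Lpcat3 (5.99 and 1.44) and Soat1 before Mylip (0.854 and 0.802).

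**Figure D3:**
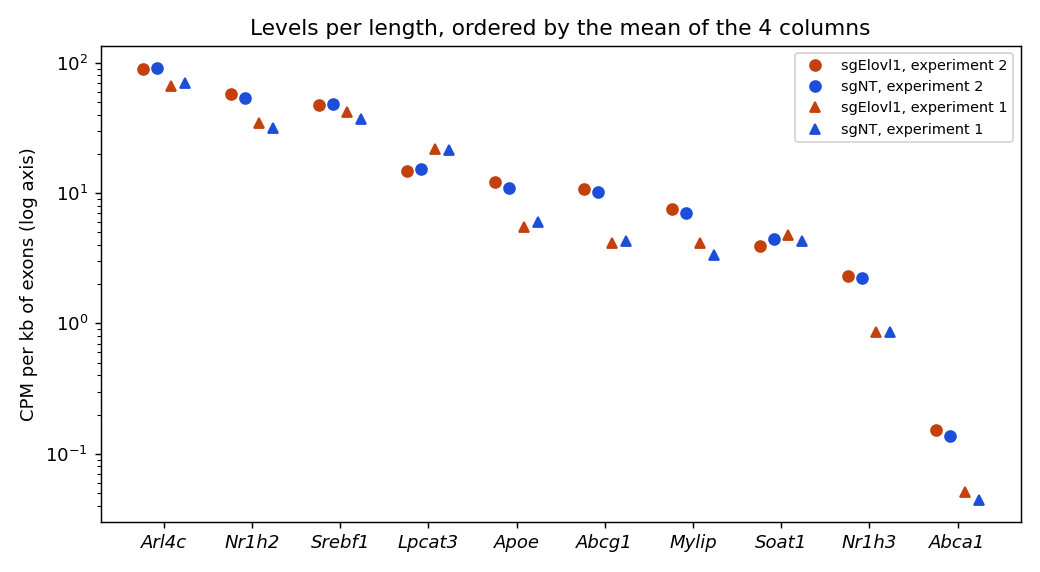
CPM per kb of exons (log y axis) of the 10 genes (x axis, ordered by the mean of the 4 columns), with a point for each column: circles are experiment 2, triangles experiment 1. Arl4c lies between 66.7 and 91.6 and Abca1 between 0.0442 and 0.153.

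The genes that resembled Abca1 and Mylip most over the 4 columns were found by the root mean square difference of their centred log2 CPM values, over 4 points of which the experiments set most of the spread. For Abca1 these were Itga2b (0.02), Cd7 (0.02) and Aldh2 (0.03) among 9756 genes, with a log2 difference between experiments of 1.58 for Itga2b and 1.54 for Aldh2. For Mylip they were Cln3 (0.01), Adamts10 (0.02) and Asb13 (0.02) among 9755 genes. Their sgElovl1 differences (0.21, 0.19 and 0.21) follow from this choice and were past the threshold in none of the 3 (adjusted p = 0.10, 0.11 and 0.36). Among the 10 genes themselves, Nr1h3 and Abcg1 were closest (0.04) and Abca1 and Lpcat3 farthest apart (1.03).

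The rest of the pathway was read from 9 further lists. Of the RXR partners and coregulators of LXR, 16 of 17 were tested, Rxrg having no count. Between sgElovl1 and sgNT, 0 were called. Gps2, a subunit of the NCoR corepressor complex, had the smallest p (log2 fold change 0.11 ± 0.06, adjusted p = 0.58). Between the experiments 7 were higher in experiment 2 and 6 lower, with a median of 0.14. Rxrb was among the higher (135 CPM in sgElovl1 cells and 132 in sgNT cells, against 84.5 and 87.5 in experiment 1), whereas Rxra was lower (27.7 and 29.4 against 34.7 and 38.8).

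The list of other LXR targets split. Of 19, 12 were tested, and Lpl, Apoc2, Mertk and Cd5l had no count in any column, where 3 counts would be 0.0474 to 0.0601 CPM. Scd1, the stearoyl-CoA desaturase, was the only one called between the groups. It fell to 58.9 CPM in sgElovl1 cells, against 75.3 in sgNT cells, in experiment 2, and to 154 against 176 in experiment 1 (log2 fold change -0.27 ± 0.07, adjusted p = 8.5e-03), a call that DESeq2 did not make (Wald test, adjusted p = 0.26). Between experiments, 5 were higher in experiment 2 and 5 lower, with a median of 0.05. The transporter Abca7 (1.03 ± 0.06), the phospholipid transfer protein gene Pltp (0.70 ± 0.08) and Smpdl3a (1.13 ± 0.13) were higher, with the exporters. Abca7 and Ttc39b (0.20 ± 0.07) count among the 5 higher but are not taken here as established LXR targets. Scd1 (-1.31 ± 0.07), Fasn (-0.89 ± 0.06) and the lipid droplet gene Plin2 (-0.59 ± 0.13) were lower. Fasn and Abca1, which hold the same 16 letters shown above, thus differed between the experiments in opposite directions. Of the targets of SREBP-1, which share Fasn, Scd1 and Scd2 with that list, 14 of 16 were tested and 10 were lower in experiment 2, against 1 higher, with a median of -0.33. Between the groups, Scd1 was again the one called, and Thrsp had no count.

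**Figure D4:**
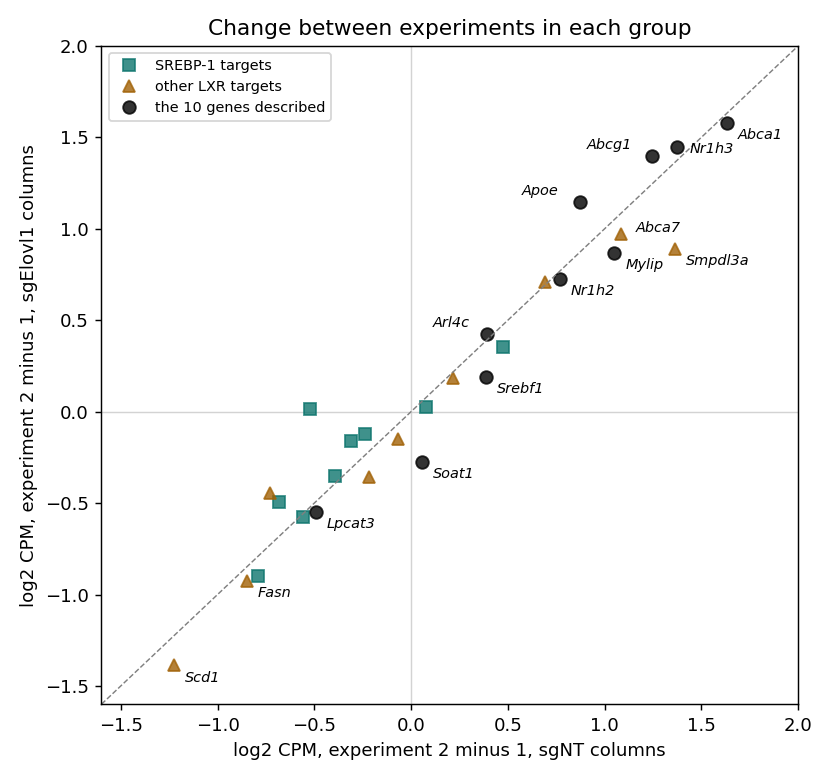
Difference between experiments 2 and 1 in log2 CPM, in the sgElovl1 columns (y axis) and in the sgNT columns (x axis). Shown are the 10 genes (circles), and, where the mean reached 5 CPM, 9 genes of the list of other LXR targets (triangles) and 9 further SREBP-1 targets (squares). The dashed line marks equal differences in both groups. Abca1, Nr1h3 and Abcg1 lie at the upper right and Scd1 and Fasn at the lower left.

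The enzymes that make or clear LXR ligands were sparse. Of 11, 6 were tested, and Cyp7a1 and Cyp7b1 had no count. Of the genes of sterol esters and lipid droplets, 11 of 12 were tested, and Aadac had no count. Dgat1, an acyltransferase that makes triglycerides, was called higher in sgElovl1 cells (log2 fold change 0.23 ± 0.07, adjusted p = 0.044), with 123 CPM against 115 in sgNT cells in experiment 2 and 52.8 against 40.7 in experiment 1. Dgat1 was called by neither test of DESeq2 (Wald test, adjusted p = 0.55). Soat2, the paralogue of Soat1, was not called between the groups (0.03 ± 0.07) and was higher in experiment 2 (0.70 ± 0.07, adjusted p = 3.2e-20), where it measured 59.3 CPM in sgElovl1 cells and 53.3 in sgNT cells, against 33.6 and 35.8 in experiment 1.

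Sterol transport proteins numbered 19, of which 16 were tested, and Cav1 had no count. Between the groups 0 were called, and Gramd1a, a carrier of cholesterol from the plasma membrane to the endoplasmic reticulum, had the smallest p (0.20 ± 0.07, adjusted p = 0.15). Between experiments 7 were higher and 5 lower, with a median of 0.13, and Gramd1a was among the higher (1.02 ± 0.07). Of the substrates and partners of MYLIP, 10 of 10 were tested and 0 were called between the groups. Between experiments 1 was higher in experiment 2 and 5 were lower, with a median of -0.36. The receptors Vldlr (-3.42 ± 0.43) and Lrp8 (-1.21 ± 0.09), which MYLIP degrades, were lower in experiment 2, where Mylip was higher.

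Of the SREBP processing genes, 12 of 12 were tested and 1 was called between the groups. Insig1, which holds the SREBP complex in the endoplasmic reticulum, fell to 61.0 CPM in sgElovl1 cells, against 71.8 in sgNT cells, in experiment 2, and to 78.5 against 99.8 in experiment 1 (log2 fold change -0.29 ± 0.07, adjusted p = 4.7e-03). DESeq2 did not call it (Wald test, adjusted p = 0.28). Between experiments, 3 were higher and 4 lower, with a median of -0.11. Of the ARL4 family and its ARF partners, 8 of 8 were tested and 0 were called between the groups, with Arf6 at the smallest p (-0.10 ± 0.06, adjusted p = 0.61). Of these 8, 4 were higher in experiment 2 and 2 lower.

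**Figure D5:**
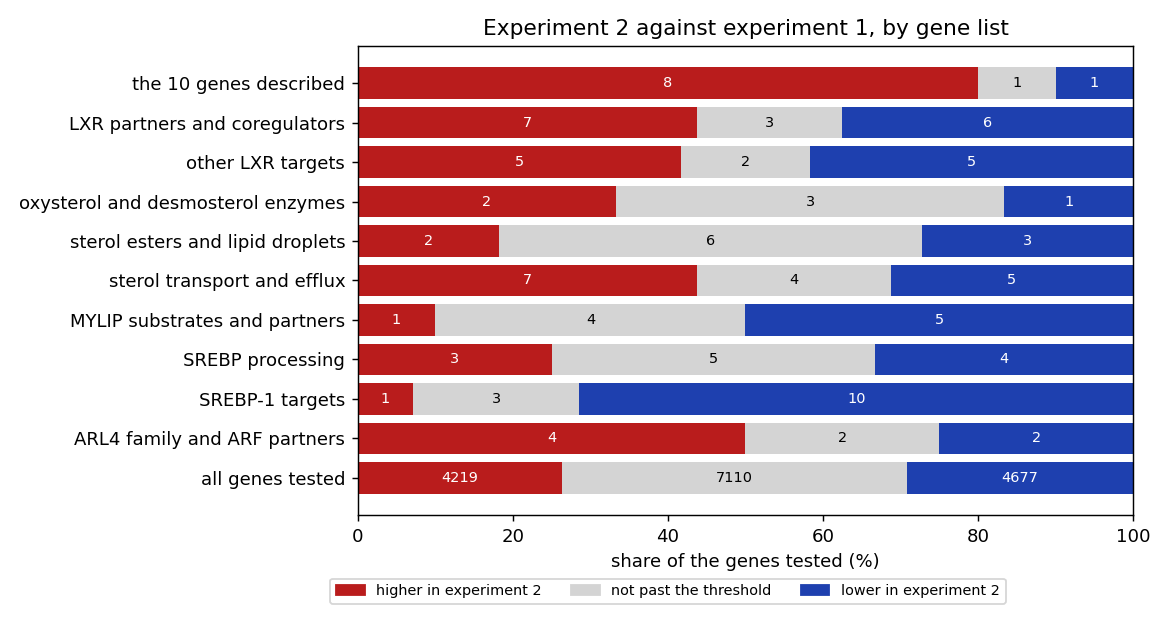
Share of the genes tested (x axis, %) that were higher in experiment 2, not past the threshold or lower in experiment 2, for the 10 genes, the 9 further lists and all genes tested (y axis). Numbers in the bars are counts of genes. Of the 10 genes 8 were higher, and of the SREBP-1 targets 10 of 14 were lower.

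The labelled cell type was checked by its markers. The 10 CD8 T cell genes summed to 5938 to 6234 CPM, led by Thy1. Between experiments, 6 of them were higher in experiment 2 and 2 lower, with Cd8a at 0.48 ± 0.07. The CD90.1 reporter used for the sort is Thy1.1, so the counts of Thy1 may include the transcript of the vector, which was not examined. Because Abca1, Abcg1, Apoe and Nr1h3 are strongly expressed by macrophages, markers of other cells are given beside them. The 15 macrophage and monocyte genes summed to 14.9 CPM in sgElovl1 cells and 13.4 in sgNT cells of experiment 2, against 11.6 and 9.32 in experiment 1, most of it Cd68. C1qa, C1qb, C1qc, Marco, Mertk, Cd5l and Vcam1 had no count, and Lyz2 stayed at 0 to 0.0200 CPM. Itgam was higher in experiment 2 (2.69 and 2.28 CPM against 0.399 and 0.253), as was the dendritic cell marker Itgax (12.7 and 16.0 CPM against 2.95 in both groups). Activated T cells also express both. Of the 4 dendritic cell genes tested, Itgax was the 1 called higher, 1 was called lower and 2 were not called. H2-Ab1, an MHC class II gene of dendritic and B cells, was lower in experiment 2 (2.29 and 3.10 CPM against 11.9 and 10.6; log2 fold change -2.07 ± 0.17, adjusted p = 2.7e-33). The dendritic cell genes summed to 14.5 to 20.5 CPM, B cell genes to 7.70 to 9.87 CPM, led by Cd79b, CD4 T cell genes to 30.7 to 37.5 CPM, led by Zbtb7b, NK cell genes to 1.22 to 2.66 CPM, led by Klrb1c, and erythroid genes to 0.247 to 0.433 CPM, all from Hba-a1 but for traces of Alas2. The part of other cells in the differences between experiments was not tested.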

How the data were processed

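According to the methods and to the notes deposited with the data, the authors aligned reads with STAR 2.7.10b to GRCm39 and counted them with featureCounts 2.0.1 over whole genes, introns included, in reverse-stranded mode, so that antisense genes were kept apart. They then summed the mice of an experiment. The deposited table held these raw counts, with no normalization. Whether replicates within a column differed could not be examined, and p-values do not measure the spread between the mice of a column. They rest on a spread between columns that is shared by all genes.

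Genes were kept by filterByExpr (16006). R 4.3.3 and edgeR 4.0.16 were used for a quasi-likelihood F test, with TMM scaling, experiment and group as terms and Benjamini-Hochberg adjustment over all genes tested. The 4 columns left 1 residual degree of freedom. The prior had infinite degrees of freedom, and SE and p therefore rest on a dispersion trend shared by all genes (biological coefficient of variation 6.98%). The fit was tested on simulated data drawn with its own dispersion trend. That test cannot show whether the shared spread, on which SE and p rest, holds for these columns. Alternatives were other scaling, filters, terms, DESeq2 1.42.0, limma-voom 3.58.1 and leaving out columns. The likeness measure used log2 CPM with a prior count of 2 over genes of at least 5 CPM.

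The 10 genes and the lists were chosen with earlier results of these data known. Named besides them were, from each further list, genes called between the groups (up to 4) or the gene with the smallest p, genes with no count, and the highest marker. Abca7, Pltp, Smpdl3a, Ttc39b, Fasn, Scd2, Plin2, Rxra, Rxrb, Soat2, Vldlr, Lrp8, Cd8a, Itgam, Itgax, H2-Ab1, Lyz2 and Alas2 were chosen after their values were seen. Some genes of the lists are counted but not reported by name here.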

Additional observations from a re-analysis of the deposited data

Results flagged for a closer look

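In 5 of the 10 genes the sgElovl1 difference had opposite signs in the experiments. Each experiment gives 1 column per group, and whether the differences differ between the experiments was not tested. In log2 CPM, sgElovl1 minus sgNT, Soat1 was at -0.17 in experiment 2 and 0.16 in experiment 1. Soat1 was the only one of the 5 for which both values exceeded counting error, with 95% counting intervals of -0.26 to -0.09 and 0.08 to 0.24. Srebf1 was at -0.026 in experiment 2 and 0.17 in experiment 1, Apoe at 0.14 and -0.13, Abcg1 at 0.098 and -0.055, and Lpcat3 at -0.033 and 0.024.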

How the results depend on the processing

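No paired analysis was possible because each column sums the mice of a group, so that mice could not be paired by number. The columns of an experiment are set beside each other by the experiment term of the model. The count of the 10 genes called between sgElovl1 and sgNT was 0 under every alternative run, where a minimum mean of 5 CPM gave no value for Abca1 and Nr1h3 and DESeq2 gave no adjusted p for 4 of the 10. The count between experiments was 8 or 9, except that a minimum mean of 5 CPM left out Abca1 and Nr1h3 and gave 7. Over all genes, 192 calls between sgElovl1 and sgNT became 94 with no filter on low counts, 59 with a minimum mean of 5 CPM, 24 with DESeq2's Wald test, 23 with its likelihood-ratio test, and 0 with no experiment term (19 with an unadjusted p below 0.05). Elovl1 then had a log2 fold change of -0.80 with no experiment term (adjusted p = 1.00).

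The sgElovl1 differences of Soat1 (-0.01) and Lpcat3 (-0.00) lay so near 0 that they changed sign. Soat1 was at 0.0078 with DESeq2 size factors, 0.012 with upper-quartile factors, 0.010 with a minimum mean of 5 CPM, 0.0032 with both tests of DESeq2 and 0.016 without mitochondrial genes and the 20 most counted genes. Lpcat3 was at 0.010, 0.015, 0.013, 0.0066 and 0.019 under the same settings, in that order, and at 0.00064 with no experiment term.

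Fits on 3 of the 4 columns had no experiment term. There the sgElovl1 comparison sets columns of different experiments against each other, and the differences changed sign with the column left out. All genes then gave 0 to 6 calls. The log2 fold changes ran from -0.89 to -0.68 for Elovl1, past the threshold in none of the 4 fits, from -0.80 to 1.24 for Abca1, from -0.79 to 0.83 for Abcg1, from -0.29 to 0.83 for Mylip, from -0.30 to 0.55 for Nr1h2, from -0.83 to 0.92 for Nr1h3, from -0.14 to 0.15 for Soat1, from -0.12 to 0.30 for Srebf1, from -0.30 to 0.27 for Lpcat3, from -0.61 to 0.58 for Apoe, from -0.26 to 0.18 for Arl4c, from -1.09 to 0.49 for Scd1 and from -0.54 to 1.14 for Dgat1. Insig1 kept its direction (-0.49 to -0.04). In the 9 settings with all columns, the call held in 5 for Scd1, 3 for Dgat1 and 6 for Insig1. Column-left-out fits and the fit without a group term for the experiments, and all alternatives for Scd1, Dgat1 and Insig1, were chosen after seeing the data. At 28 to 88 counts, depth limits Abca1.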
